A study of Rattus norvegicus with 2 samples.

Results

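Spliced long non-coding RNAs (lncRNAs) whose ends lie 50000 bases or more apart on the chromosome numbered 490 among the 18361 lncRNAs that had at least 1 read in the myocardium of 2 groups of hypertensive rats. A lncRNA was taken as spliced where the distance from its start to its end was more than 5 bases above its listed length, so the choice used position and length and no measured level. The 490 were 2.67% of all lncRNAs and 5.52% of the 8872 spliced ones. They are called long-span lncRNAs here.

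All tissue came from spontaneously hypertensive rats, which are inbred, become hypertensive with age and thicken their heart muscle. One group received KXH, the herbal Jiangya Kangxian formula at its high dose of 9.6 g/kg into the stomach, and the other received distilled water, in both cases over 12 weeks. Each group had 1 library, made from total RNA of frozen myocardium, and no animal with normal blood pressure was part of the comparison. Ages, and how many animals contributed to each library, are not given in the labels.

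LncRNAs are transcripts without a long open reading frame, and many are spliced from exons that lie far apart, with introns in between that are removed from the mature RNA. Known ones act on chromatin, on splicing, on neighbouring genes or on other RNAs, and several are known to influence growth and stress responses of heart muscle. Identifiers beginning with NONRATT are those of rat transcripts in the NONCODE collection of lncRNAs. The tables pair them with no gene name, so no function is given for any single member here. Listed length and level refer to the exons, whereas the span also counts the introns.

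In units of 1000000 reads, the depth of the lncRNA tables was 2.93 for KXH and 3.18 for water, and that of the protein-coding tables was 14.1 and 15.1. The tissue label was checked on protein-coding genes: all 8 heart muscle markers were present, with summed levels of 39160 RPKM (reads per kilobase of transcript per 1000000 reads of its table) in KXH and 36103 in water. Of 3 markers of liver, kidney and pancreas, Umod and Ins1 had 0 reads in both libraries and Alb stood at 0.391 and 1.36 RPKM. Markers of other cells of the heart differed between the libraries. Summed over the whole list, blood cell markers stood at 2269 RPKM in KXH and 3338 in water, lower for 4 of 4. Endothelial markers stood at 307 and 350, lower for 5 of 5. Smooth muscle markers stood at 56.8 and 79.3, lower for 4 of 4, and fibroblast markers at 788 and 708, lower for 1 of 5. The part of the cell makeup in the ratios below was not tested, and in tissue of this kind fewer cells of a type and less RNA per cell cannot be told apart.

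The spans of the 490 ran from 50017 to 1127773 bases with a median of 85238, and the middle quartiles from 63483 to 138754. Spans of at least 100000 bases were found in 183, of at least 200000 in 81, of at least 500000 in 15 and of at least 1000000 in 2. The mature transcripts were short beside these distances. Their listed lengths ran from 223 to 8497 bases with a median of 573.5, and exons took a median of 0.615% of the span, from 0.0603% to 9.72%. In every member the stretch between the listed exons thus made up most of the span.

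The 3 longest spans belonged to members with very different read numbers. NONRATT027366.2 at chr7:144345120-145472893 had 0 reads in KXH and 2 in water. NONRATT030322.2 at chr9:101583397-102613788 had 30611 and 37542. NONRATT008292.2 at chr13:64303690-65202403 had 0 and 1. Only the second of these can be compared between the libraries.

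Members just inside the limit of 50000 bases were NONRATT024391.2 (span 50017; 39 reads in KXH and 32 in water), NONRATT031796.1 (24 and 35) and NONRATT027453.2 (45 and 44). Just outside it lay NONRATT020254.2 (span 49930; 124 and 138 reads), NONRATT026977.2 (1 and 0) and NONRATT030080.2 (6 and 22). Read numbers differed more among the 3 outside than among the 3 inside.

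Of the 490, KXH tissue gave reads for 443, water tissue for 463, and 416 had reads in both. Summed over both libraries, a member had a median of 42.5 reads, with the middle quartiles from 8 to 152.5. At least 20 reads were reached by 308 members, at least 200 by 103 and at least 1000 by 21, while 81 had 3 reads or fewer. Many members were thus counted from few reads.

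The median level was 12.1 RPKM in KXH and 13.4 in water, against 9.65 and 10.3 over all lncRNAs. Spliced lncRNAs of shorter span were at 10.1 and 10.6 RPKM (under 10000 bases) and at 9.72 and 10.4 (10000 to 50000 bases), and unspliced lncRNAs at 7.09 and 7.77 (under 1000 bases, median length 580) and at 22.0 and 23.3 (1000 bases or longer). Among the members, median levels in KXH and water were 11.2 and 10.9 RPKM for the 307 spans under 100000 bases, 12.1 and 16.1 for the 102 from 100000 to 200000, and 21.2 and 19.0 for the 81 of 200000 or more. Across the 490, span and level were nearly unrelated in rank, with a Spearman coefficient of 0.069 in water and 0.048 in KXH, given as a description across transcripts of the same libraries.

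**Figure D1:**
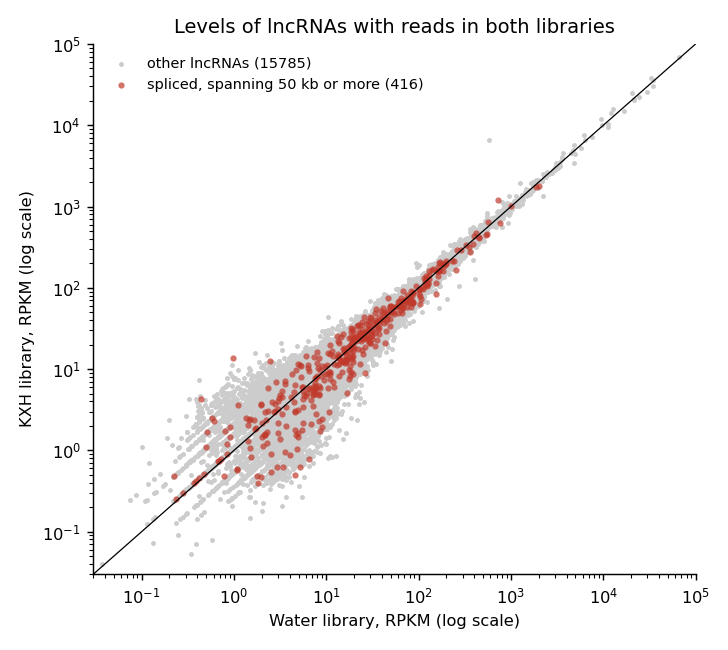
Level of each lncRNA with reads in both libraries, in RPKM, water on the x axis and KXH on the y axis, both on log scales, with equal levels on the line. The 416 long-span lncRNAs (red) lie among the 15785 others (grey) and close to the line at high levels, with NONRATT017137.2 (732 RPKM in water, 1204 in KXH) above it.

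Together the members took 81213 of the lncRNA reads in KXH, a share of 2.77% (95% exact Clopper-Pearson interval 2.75 to 2.79), and 92921 in water, a share of 2.92% (2.91 to 2.94). These intervals, like all others below, cover counting error only and carry none of the variation between animals. A single transcript held a large part of both shares. NONRATT030322.2 made up 37.7% of the members' reads in KXH and 40.4% in water, and without it the shares were 1.73% and 1.74%.

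NONRATT030322.2, a transcript of 5848 bases spread over 1030391 bases of chromosome 9, was first among the members by level in both libraries, at 1787 RPKM in KXH and 2021 in water. The ratio of KXH to water was 0.884 (0.871 to 0.898). Its interval was the narrowest of the members with the most reads, because of its 68153 reads in sum, and no other lncRNA in the tables overlapped its span. The authors' coverage value, written as a percent, averaged 99.9 over both libraries. With it the ratio of the members' summed reads was 0.948 (0.939 to 0.957), and without it 0.991 (0.979 to 1.00).

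NONRATT024249.2 came second by level in both libraries although its listed length is 606 bases. It spans chr6:59418175-59701478 and had 3075 reads in KXH and 3592 in water, or 1732 and 1866 RPKM. The ratio was 0.928 (0.885 to 0.975). It too overlapped no other listed lncRNA.

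NONRATT005678.2 at chr10:61457217-61577440 was second by reads, with 3742 in KXH and 4047 in water. Its level was the same in both libraries within counting error, at 291 and 290 RPKM and a ratio of 1.00 (0.959 to 1.05). The long-span lncRNA NONRATT030977.2 at chrX:40030613-40086798 gave the same picture with 1543 and 1668 reads, 1013 and 1010 RPKM and a ratio of 1.00 (0.936 to 1.08). NONRATT020373.2 at chr4:66290334-66354711, with 1243 and 1391 reads, had a ratio of 0.969 (0.897 to 1.05). Together these 3 intervals run from 0.897 to 1.08, so any difference between the libraries was small.

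The other members among the 10 with the most reads had intervals that exclude 1. NONRATT014594.2 at chr19:27702027-28073760 had 2307 reads in KXH and 2287 in water, a ratio of 1.09 (1.03 to 1.16). NONRATT023347.2 at chr5:100439169-100496433 had 1390 and 1669 reads, a ratio of 0.903 (0.841 to 0.971). NONRATT025483.2 at chr7:4707956-5228276 had 878 and 1131 reads, a ratio of 0.842 (0.770 to 0.920). These differences are larger than counting error and small in size. Whether they exceed the spread between animals cannot be seen with 1 library per group. The 10 members with the most reads held 59.5% of the members' reads, and the remaining 2 of the 10, NONRATT017137.2 and NONRATT030976.2, are described with their loci.

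How large a difference could be seen depended on the reads of each member. At equal levels, the counting interval of the ratio ran from 0.405 to 2.90 for 20 reads in sum, from 0.662 to 1.51 for 100, from 0.751 to 1.33 for 200 and from 0.883 to 1.14 for 1000. A ratio of 2 needed 40 reads in sum for its interval to exclude 1, and 239 of the 490 had fewer. For those 239 an observed ratio of exactly 2 would have an interval that includes 1, while the interval of a larger difference could exclude it.

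Setting KXH against water asks which transcripts differ in the hypertensive heart after the formula. The 308 members with at least 20 reads in sum had a median log2 ratio, KXH over water on the log2(RPKM + 0.1) scale, of -0.03, against -0.04 over the 11547 lncRNAs with that many reads. On this scale 4 members were at least 2-fold higher in KXH, 1.30% of the 308, where the share over all lncRNAs was 1.78%. At least 2-fold lower were 10 members, 3.25%, against 3.09% over all lncRNAs. Both shares lie near the background. The split of 4 higher and 10 lower became 6 and 9 when libraries were scaled by the median of ratios, and 2 and 10 when they were scaled by the protein-coding totals.

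The 14 members past 2-fold had few reads. All but 1 had under 100 reads in sum and the most had 109, and for 11 of the 14 the counting interval excluded 1. The highest of the 14 was NONRATT009658.2, with 19 reads in KXH and 4 in water, and the lowest was NONRATT017132.2, with 4 and 20; both were chosen for naming after their values were seen. Their intervals, 1.71 to 20.8 and 0.0539 to 0.648, span more than a factor of 10.

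The counting interval of the ratio lay above 1 for 24 of the 490 members, 4.90%, where the share over all lncRNAs was 4.63%. It lay below 1 for 40 members, 8.16%, against 6.45% over all lncRNAs. Of the 64, 34 were among the 103 members with at least 200 reads. Their intervals lay above 1 for 13 (12.6%, against 10.5% of all lncRNAs of that depth) and below 1 for 21 (20.4%, against 12.8%). Of the 34, 30 were within 1.5-fold of equal levels. At the other end, 8 of the 64 had under 20 reads, 2 of them above and 6 below.

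Among the 103 members with at least 200 reads, the ratio ran from 0.556 to 1.65 with a median of 0.953, and the middle quartiles ran from 0.869 to 1.06. The median log2 ratio was -0.07, against -0.01 over all lncRNAs of that depth. On the log2 scale the robust SD of these ratios was 0.213, and counting error at their typical depth was 0.129. Over all 3818 lncRNAs with at least 200 reads these were 0.198 and 0.133. The spread beyond counting error was thus of similar size for long-span lncRNAs and for lncRNAs at large, and how much of it is variation between animals was not measured.

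**Figure D2:**
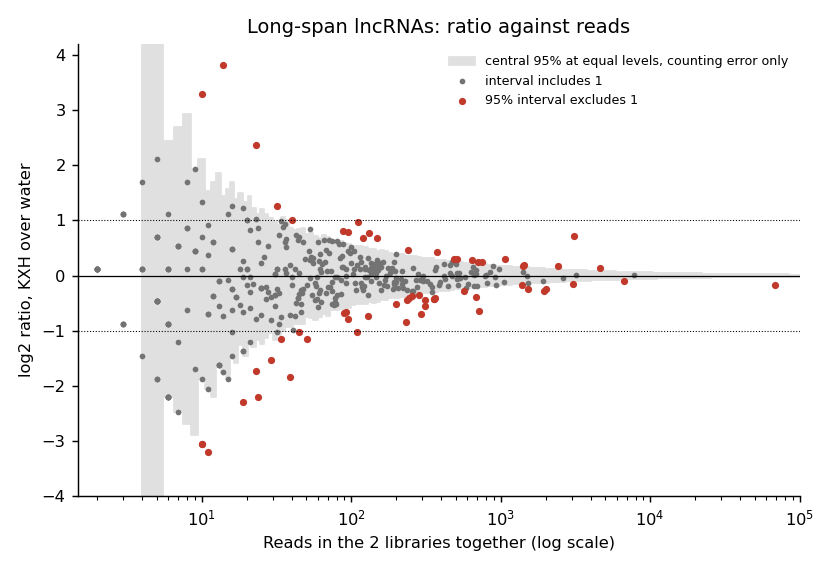
Log2 ratio of KXH over water against the reads of both libraries together (log scale) for the 416 long-span lncRNAs with reads in both. Grey shading marks the central 95% of ratios that counting error gives at equal levels, drawn from 4 reads upwards, dotted lines mark 2-fold, and red points are those whose own 95% interval excludes 1. Points past 2-fold sit at the left, under 110 reads.

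Members spanning 100000 bases or more had a lower median ratio than the shorter ones. For the 116 of these with at least 20 reads the median log2 ratio was -0.13, and for the 192 members under 100000 bases it was 0.03. Spliced lncRNAs outside the set had medians of -0.01 (spans under 10000 bases) and -0.03 (10000 to 50000). The interval lay below 1 for 22 of the 183 longer members (12.0%) and above 1 for 7 (3.83%). Under 100000 bases it lay below 1 for 18 of 307 (5.86%) and above for 17 (5.54%). The shares over all lncRNAs were 6.45% below and 4.63% above. With at least 200 reads, where counting error is smallest, the longer ones had 16 intervals below 1 (32%) and 5 above (10%) among 50. The shorter ones had 5 below (9.43%) and 8 above (15.1%) among 53. Over all lncRNAs of that depth 12.8% lay below and 10.5% above. The difference between the 2 classes of span was seen after the values were known, and members of 1 locus are not independent, so it is a description of these libraries.

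Among members with at least 100 reads, the 5 highest ratios were between 1.59 and 1.95. NONRATT031487.1 at chr1:35922688-35996536 had 72 reads in KXH and 40 in water, a ratio of 1.95 (1.31 to 2.95). NONRATT022103.2 at chr5:25050298-25120264 had 80 and 51 reads, a ratio of 1.70 (1.18 to 2.47). The third was NONRATT017137.2, with 1866 and 1230 reads and a ratio of 1.65 (1.53 to 1.77). It is the only one of the 5 whose reads hold its interval above 1.5. NONRATT006827.2 at chr11:24589367-24640798 had 89 and 60 reads, a ratio of 1.61 (1.15 to 2.27). NONRATT023231.2 at chr5:63970507-64030895 had 72 and 49 reads, a ratio of 1.59 (1.09 to 2.34). The order of the 5 cannot be told from these reads, since each interval holds the ratios of all the others except that of NONRATT031487.1, which lies above the interval of NONRATT017137.2.

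The 5 lowest ratios were between 0.492 and 0.642. NONRATT009706.2 at chr14:5315298-5378528 had 34 reads in KXH and 75 in water, a ratio of 0.492 (0.318 to 0.747). NONRATT021459.2 at chr4:89595455-90018433 had 79 and 154 reads, a ratio of 0.556 (0.419 to 0.734). NONRATT005432.2 at chr10:40056228-40122862 had 46 and 83 reads, a ratio of 0.601 (0.410 to 0.872). These 3 intervals overlap widely. NONRATT021451.2 at chr4:88319013-88574449 had 107 and 188 reads, a ratio of 0.617 (0.482 to 0.787). NONRATT018538.2 at chr3:114366648-114646999 had 268 and 453 reads, a ratio of 0.642 (0.550 to 0.748), and overlapped no other listed lncRNA. Of the 5 it was the most firmly counted.

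**Figure D3:**
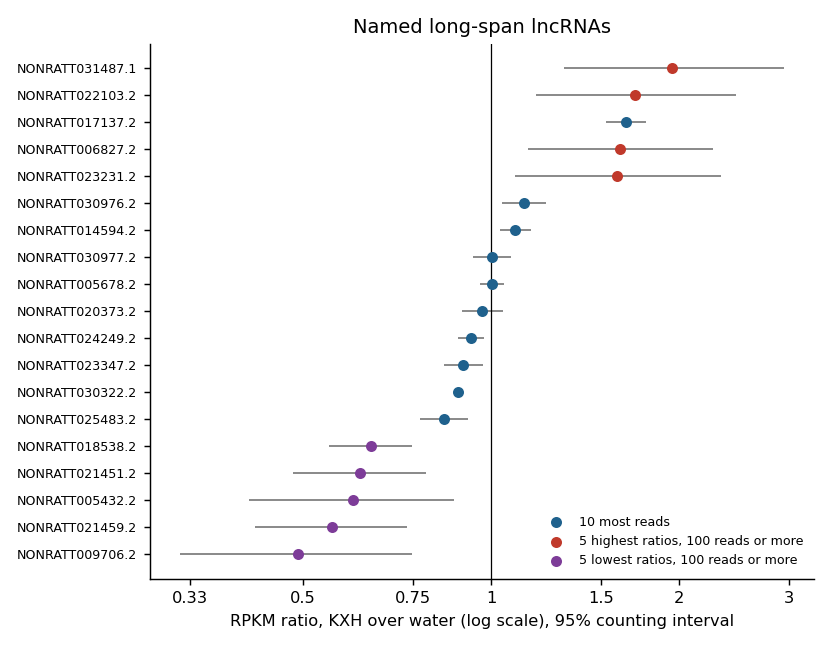
RPKM ratio of KXH over water (log scale) with its 95% exact counting interval for the 10 long-span lncRNAs with the most reads (blue) and the 5 highest (red) and 5 lowest (purple) ratios among those with at least 100 reads; NONRATT017137.2 belongs to the first 2 sets and is drawn blue. The members with the most reads lie between 0.842 and 1.13, apart from NONRATT017137.2 at 1.65, and intervals widen as reads fall.

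Reads in 1 library only were found for 74 members, 27 in KXH only and 47 in water only. That is 15.1% of the members, against 11.8% of all lncRNAs. Other spliced lncRNAs were nearer to the members, at 13.3% for spans of 10 to 50 kb and 13.8% for spans under 10 kb. The share was 2.85% for unspliced lncRNAs of 1 kb or longer. Of the 74, 67 had 3 reads or fewer. The most reads belonged to NONRATT015827.2 at chr2:244057905-244187302, with 0 in KXH and 9 in water, at least 2.77-fold lower against a floor of 3 reads in KXH, while its exact counting interval bounds the difference less tightly, at 1.82-fold. NONRATT021930.2 at chr4:171069769-171176637 had 0 and 6 reads, at least 1.84-fold lower against that floor and 1.09-fold by its interval. NONRATT008208.2 and NONRATT028922.2 each had 0 and 5 reads, NONRATT029791.2 had 0 and 4, and NONRATT025437.2 and NONRATT032441.1 had 4 and 0. The intervals of these 5 include 1, so their reads give no direction. Only for the first 2 of these 7 did the counting interval exclude 1, with upper limits of 0.549 and 0.921 on the ratio. At these read numbers a 0 does not show absence from the tissue.

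When members whose spans overlap were joined, the 490 formed 432 loci. A locus of its own belonged to 385 members, and the other 105 fell into 47 shared loci, 40 with 2 members, 5 with 3, 1 with 4 and 1 with 6. The tables give no strand, so transcripts on opposite strands were joined as well. Other lncRNAs of any kind overlapped the span of 286 members, up to 13 for 1 member, and 204 had none. A span holds introns, so a lncRNA within it need not share an exon with the member, and the exons are not given in the tables.

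Ratios of members that share a locus could be set side by side in the 19 loci where 2 members reached 20 reads. In 4 both ratios were below 1, in 1 both were above 1 and in 14 they lay on opposite sides. The sides were taken from the ratios alone, whether or not their intervals include 1. No such split was counted for other overlapping lncRNAs, so nothing is read from it about shared loci. For 1 of these 19 loci, on chromosome 20, the counting intervals themselves lay on opposite sides of 1, and in the others at least 1 interval of the pair included 1. Counting all members whatever their reads, a further locus on chromosome 18 did so. Reads of exons that transcripts share can be split between them by the counting, which the sources used here do not describe.

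**Figure D4:**
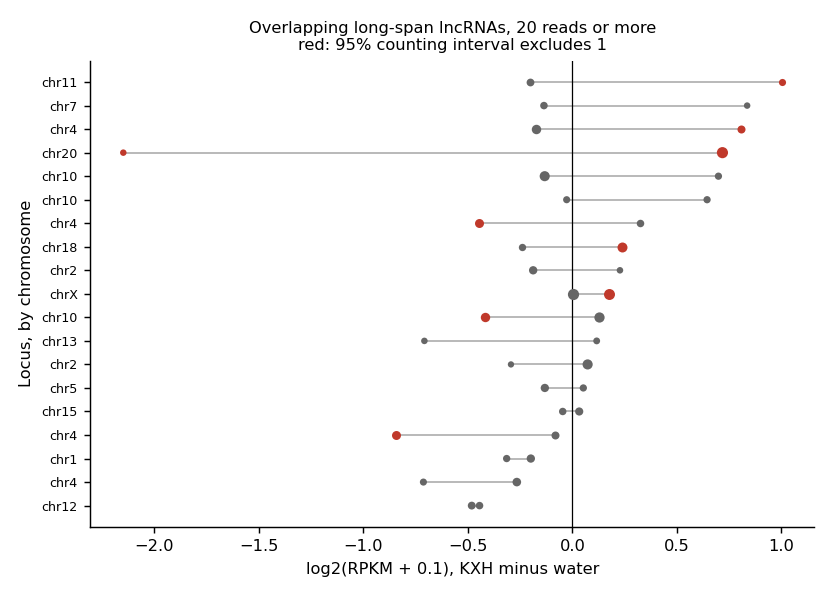
Difference of log2(RPKM + 0.1), KXH minus water, for the members of the 19 loci that hold 2 long-span lncRNAs with at least 20 reads, 1 line per locus, named by chromosome, with larger points for more reads. Red points have a 95% counting interval that excludes 1. In 14 loci the points lie on both sides of 0, with the widest gap on chromosome 20, from -2.15 to 0.72.

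The chromosome 20 locus holds the best-counted of the high ratios. NONRATT017137.2, 529 bases long, spans chr20:5354224-5418017 and stood at 1204 RPKM in KXH and 732 in water. The member that overlaps it, NONRATT017132.2 at chr20:5344607-5410527, had 4 reads in KXH and 20 in water, a ratio of 0.217 (0.0539 to 0.648). NONRATT017141.2, of shorter span, ends 4 bases from the end of NONRATT017137.2 and had 193 and 657 reads, a ratio of 0.319 (0.270 to 0.375). It thus went the opposite way from a transcript with nearly the same end. NONRATT017140.2, which spans under 10000 bases inside the same stretch, had 1414 and 1456 reads, a ratio of 1.05 (0.978 to 1.13). The other 3 lncRNAs there had 5 to 9 reads in KXH and 9 to 14 in water. When the 6 overlapping lncRNAs were added to NONRATT017137.2, the sum was 3498 reads in KXH and 3399 in water, a ratio of 1.12 (1.06 to 1.17). That ratio is nearer to 1 than the 1.65 of the single transcript, and it leaves out lncRNAs that overlap only NONRATT017132.2.

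**Figure D5:**
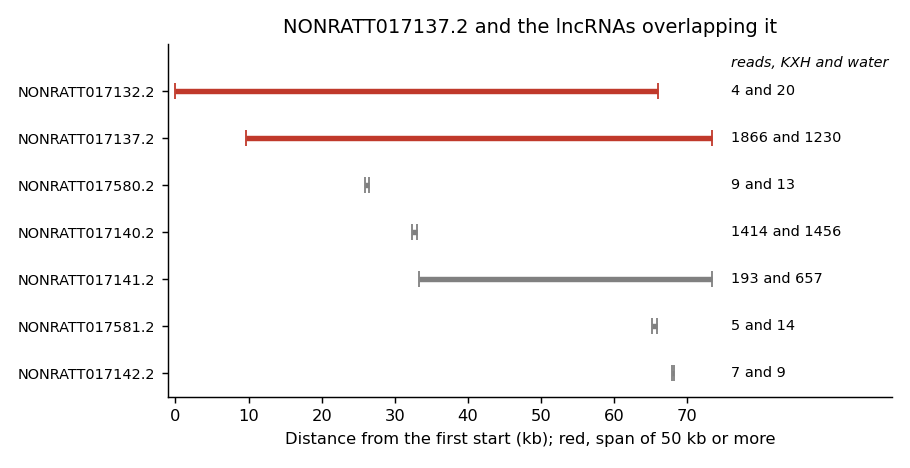
Spans of NONRATT017137.2 and the 6 lncRNAs that overlap it on chromosome 20, as distance in kb from the first start; long-span members are red and the others grey, and the reads in KXH and in water stand at the right. NONRATT017137.2 (1866 and 1230 reads) and NONRATT017141.2 (193 and 657) end at nearly the same place and differ between the libraries in opposite directions.

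On chromosome X the members NONRATT030977.2 and NONRATT030976.2 overlap over most of their spans, with starts 477 bases apart. The latter, at chrX:40030136-40082941, had 1228 reads in KXH and 1179 in water, a ratio of 1.13 (1.04 to 1.22), while the former stood at 1.00. Both together had 2771 and 2847 reads, a ratio of 1.06 (1.00 to 1.11). It was the single pair of the 19 with both ratios above 1, and scaling by the protein-coding totals put NONRATT030977.2 at 0.994.

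On chromosome 8, NONRATT028253.2 and NONRATT028252.2 have the same listed start, end and length, chr8:11012392-11537636 and 325 bases. The pair was singled out after its values were seen. The first had 13 reads in KXH and 1 in water, a ratio of 14.1 (2.12 to 599), and the second had 2 and 7, a ratio of 0.310 (0.0314 to 1.63). They were the only members with identical coordinates, although 17 shared a start and 8 an end with another member. What sets the pair apart is not given in the tables, and with under 20 reads each their ratios are barely bounded.

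The locus with the most members, 6 on chr7:102648929-102869518, was hardly read: together the 6 had 11 reads in KXH and 16 in water, and the most belonged to NONRATT025985.2 with 3 and 10. The 4 members on chr1:146748653-146823762 had 73 and 96 reads, led by NONRATT002859.2 with 53 and 66, a ratio of 0.871 (0.595 to 1.27). Of the loci with 3 members, the one on chr18:51844982-52048282 had 390 and 374 reads. There NONRATT013827.2, with 368 and 338 reads, had a ratio of 1.18 (1.02 to 1.37), and NONRATT013826.2, with 1 and 9, a ratio of 0.121 (0.00275 to 0.870). This is the second locus with intervals on opposite sides of 1. The leading members of the next 2 loci were even: NONRATT033993.1 on chromosome 17 had 183 and 184 reads, a ratio of 1.08 (0.874 to 1.33), and NONRATT025931.2 on chromosome 7 had 52 and 52, also 1.08 (0.724 to 1.62).

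Reads of overlapping lncRNAs were also added to those of other members with high or low ratios, as a description, since shared exons are not known. NONRATT022103.2, with a ratio of 1.70, was overlapped by NONRATT022104.2 with 40 reads in KXH and 49 in water, and the sum of both had a ratio of 1.30 (0.990 to 1.71). NONRATT005432.2, with a ratio of 0.601, lay with 2 lncRNAs that together had 445 and 481 reads, and the sum had a ratio of 0.944 (0.835 to 1.07). NONRATT009706.2 and its neighbour summed to 0.612 (0.421 to 0.883), and NONRATT021459.2 and its 3 neighbours to 0.708 (0.580 to 0.862). NONRATT006827.2, whose 1 neighbour had 1 read in each library, summed to 1.60 (1.14 to 2.25). The interval of the sum included 1 for NONRATT022103.2 and NONRATT005432.2 and excluded it for the other 3. If a read was listed under more than 1 lncRNA, it entered a sum more than 1 time, and the interval is then too narrow. How reads were counted is not given, and the same limit holds for the other sums over overlapping lncRNAs.

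The deposited coverage is written as a percent, but some values in the tables pass 100 and the sources used here do not define it. Averaged over both libraries, it had a median of 94.4% among the 103 members with at least 200 reads, against 97.2% among all lncRNAs of that depth. It was at least 90% for 61 of the 103. In 5 members it was under 60% despite at least 200 reads, 4.85% against 2.44% of all lncRNAs. At that depth the share was 4.51% for spliced lncRNAs spanning 10 to 50 kb, close to that of the members. It was 2.95% for spliced lncRNAs spanning under 10 kb and 0.904% for unspliced ones of 1 kb or longer. The 5 members were named after their values were seen: NONRATT019918.2, NONRATT013150.2, NONRATT000076.2, NONRATT001858.2 and NONRATT030792.2. NONRATT019918.2 had 716 reads in KXH and 687 in water and coverage values of 38.1% and 38.3%. NONRATT001858.2 had 839 and 1111 reads and coverage values of 51.1% and 51.4%, with a ratio of 0.819 (0.748 to 0.897). The 5 were picked by the average of both libraries, which favours members that are low in both. A low value in KXH alone also occurred: NONRATT025483.2, with 878 and 1131 reads, had 54.2% in KXH and 77.6% in water. Where along a transcript its reads lie is not in the tables.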

How the data were processed

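Each library had a lncRNA table and a protein-coding table. The deposited read count is a whole number, described as unique per the file headers. The deposited RPKM equals that count divided by the length in kilobases and scaled to 1000000 reads of its own table, checked on every row to a relative difference of 1e-09. The deposited coverage is a percent, handled as a score since some values exceed 100, and describes depth only. Bowtie 0.12.2 and rn6 are named in the submitters' processing notes with no role. The annotation, the counting program, strand use and filters: not given in the sources used here. The tables name no build for their coordinates. Without strand, reads of overlapping transcripts on opposite strands cannot be told apart, and unique reads can be split or lost between near-identical copies.

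The lncRNA tables were joined on identifier, with 0 reads for an absent row; coordinates and lengths were the same in all 16201 shared rows. With 1 library per group no test between treatments was possible. Ratios are RPKM ratios. Their 95% intervals are exact Clopper-Pearson limits for the KXH share of a transcript's reads, given both table totals. Reads carry no molecular identifiers, so neither intervals nor floors cover more than counting error. Log2 ratios use log2(RPKM + 0.1), which shrinks those of low levels, and 2-fold counts need 20 reads in sum.

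Named members are the 10 with the most reads, the 5 highest and 5 lowest ratios with at least 100 reads, the 3 longest spans, the 5 with most reads in 1 library only (ties kept), 3 on each side of the limit, and the most read of the 5 largest loci. Members that share a locus with these, and others said to be chosen after their values were seen, were added. Of the 490, 0 matched the RefSeq table of gene names. The members, lists and rules were chosen with earlier results of these data known. Scripts were tested on simulated counts. Alternatives varied the span limit, scaling, pseudocount, read minimum, interval and joining of loci. The software was Python 3.11.15 with scipy 1.17.1, pandas 2.3.3, numpy 2.4.6 and matplotlib 3.10.9.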

Additional observations from a re-analysis of the deposited data

How the results depend on the processing

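The number of long-span lncRNAs was 183 with a span limit of 100000 bases in place of 50000. Members at least 2-fold apart, 14 with at least 20 reads, numbered 125 (43 higher, 82 lower) with no read minimum and 1 with at least 100 reads. With 99% intervals, intervals of 31 members excluded 1 (10 above, 21 below), against 64. Without NONRATT030322.2 the share of lncRNA reads was 1.73% in KXH and 1.74% in water. The other 23 of 29 alternative values stayed within 1.5 times of the reported one or, for the median log2 ratio, within its spread. That median ran from -0.0693 with no read minimum to -0.00656 under scaling by the median of ratios. The other scalings shifted all log2 ratios by 0.02 (median of ratios) and -0.01 (protein-coding totals). A total without the 10 lncRNAs with the most reads, a scaling chosen after seeing the data, shifted them by -0.02. Under these scalings, in that order, intervals excluding 1 numbered 61, 69 and 70. All 54 recomputed ratios of named members stayed within their counting intervals, and those of NONRATT005678.2 and NONRATT030977.2, near 1, crossed it to 0.993 and 0.994. Each scaling moves every ratio by the same small factor. Staying within the intervals therefore follows from their width and is no check on any single member. Summing reads over the members of a locus, also chosen after seeing the data, gave 14 loci past 2-fold and 56 intervals excluding 1. The shares over all lncRNAs were not taken at these other settings, so none of the counts under them is read as particular to the members. Joining on either strand equals the reported joining, since no strand is given. No paired analysis was possible because each group has 1 library. Depth limits many members: 239 of the 490 had too few reads for the interval of an observed ratio of exactly 2 to exclude 1.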

Other observations

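A stretch of chromosome 4 held 2 of the 5 lowest ratios, and all lncRNAs in it were therefore looked at after the values were seen. It had 19 listed lncRNAs, of which 5 were long-span members, and the ratios of all 5 were below 1. Of the 19, 4 had a counting interval below 1 and 0 had one above, where the shares over all lncRNAs were 6.45% and 4.63%. The stretch was picked for its low ratios, so nothing is read from that count. Besides NONRATT021451.2 (107 reads in KXH and 188 in water) and NONRATT021459.2 (79 and 154), these were NONRATT021452.2 (166 and 276, a ratio of 0.652, 0.535 to 0.794) and NONRATT021453.2 (80 and 125, 0.694, 0.518 to 0.926). The best-read lncRNAs of the stretch were even, NONRATT020510.2 with 1010 and 1105 reads (0.991, 0.909 to 1.08) and NONRATT020511.2 with 1021 and 1101 (1.01, 0.923 to 1.10).

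A listed length of 578 bases was the commonest among the members, as it was over all lncRNAs. It was shared by 10 of them on 7 chromosomes, and by 78 of all lncRNAs, of which 57 were unspliced. Together the 10 had 310 reads in KXH and 448 in water, and all 5 with at least 20 reads had a ratio below 1. Of these 5, only NONRATT021451.2 had a counting interval that excluded 1 (0.482 to 0.787). Over all lncRNAs with at least 20 reads the median log2 ratio was -0.04, and the share of ratios below 1 was not counted. NONRATT021451.2 and its chromosome 4 neighbours NONRATT020508.2 (69 and 90 reads) and NONRATT021449.2 (14 and 25) are among the 5. They lie in the stretch picked for its low ratios, and NONRATT020508.2 and NONRATT021449.2 share a locus. Nothing is therefore read from the count of 5 or from the summed reads. Whether the 10 share sequence was not examined.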
